A study of Mus musculus with 27 samples.

Results

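Unstimulated mouse cortical cells held under the transcription inhibitor DRB were compared with unstimulated cells held under the transcription inhibitor triptolide. The comparison takes 6 of the 27 polyadenylated RNA libraries of the study, 3 under each inhibitor, and 13331 of the 59489 entries of the deposited expression table, namely those that reached 1 FPKM (fragments scaled to transcript length and library depth) in at least 3 of the 6 libraries. All cells were wild type primary cortical cells taken from mouse embryos at embryonic day 16.5 and cultured for 14 days. The DRB group received 50 µM DRB for 2 h, and the triptolide group 1 µM triptolide for 3 h and was extracted as whole cells. For the DRB group no fraction is stated in the labels. Neither group received bicuculline or BDNF, the stimuli used elsewhere in the study, and no library without an inhibitor was used here, so every value is a level left, or made, in the presence of an inhibitor. The inhibitor, its hours and the library series (named with an S or an N in the labels) differ together between the groups and cannot be told apart. The labels do not say whether the 3 libraries of a group came from separate cultures, so p-values measure only the spread between these libraries.

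DRB blocks the kinase CDK9, a subunit of the factor P-TEFb that releases RNA polymerase II from its pause near the promoter. It thereby stops most elongation, while polymerases already far into a gene can finish. Triptolide binds XPB, the helicase encoded by Ercc3 within the initiation factor TFIIH, and stops new initiation; it also leads to loss of the largest polymerase II subunit. Once synthesis stops, an mRNA falls at the speed at which it is degraded. Immediate early genes, feedback inhibitors of growth factor signalling and many transcription factors make mRNAs that decay fast, often through AU-rich elements in the 3′ untranslated region (UTR), while mRNAs of metabolic enzymes and structural proteins are mostly long-lived. The mitochondrial genome is transcribed by its own polymerase, encoded by Polrmt, and not by polymerase II.

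The libraries were of like depth, as computed from the smallest steps between the deposited values: the 3 DRB libraries held 91232800 to 96183700 fragments and the 3 triptolide libraries 76391200 to 87445600. For a transcript of 2 kb, 10 fragments made an FPKM of 0.0520 to 0.0655. Between 12908 and 13092 entries reached an FPKM of 1 in each library. The markers of excitatory neurons were abundant in all 6, with a summed FPKM of 759 to 906 under triptolide and 852 to 1166 under DRB, and those of astrocytes summed to 1989 to 2284 and 1748 to 2121. The endothelial marker Cldn5 was listed at 0 in all 6 libraries. The microglial markers Tmem119 and P2ry12 stayed at or under 0.0413 FPKM. DRB replicate 2 stood apart from the other 2 DRB libraries in vascular and mesenchymal markers, with a summed FPKM of 12.3 against 99.0 and 67.5, and in progenitor and proliferation markers, with 101 against 285 and 245.

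Most genes differed between the inhibitors. Of the 13331 entries, 8793 (66%) were called at an adjusted p under 0.05, 6676 (50.1%) with the higher level under DRB and 2117 (15.9%) with the higher level under triptolide. With a log2 difference of at least 1 in addition, 584 entries (4.38%) were higher under DRB and 475 (3.56%) under triptolide. All 3 libraries of one group lay above all 3 of the other for 9383 entries (70.4%), with DRB on top in 52.8% of all entries and triptolide in 17.5%. Differences are on the scale of log2(FPKM + 0.5), which understates the change of low genes, and are given as DRB minus triptolide, so that a positive value is a higher level under DRB.

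The balance between the directions depended on how the libraries were scaled. The median difference over all entries was 0.27 on the FPKM as deposited, where 75.9% of calls were higher under DRB, and −0.02 after scaling by the median of ratios between libraries, where 47.2% were. That share was 59.7% after quantile normalization and 70.1% after the mitochondrial RNAs were left out of the totals. Differences are therefore best read against the median of 0.27, and genes within about that distance of 0 have no settled direction. Beyond the size of 1, median-ratio scaling left 225 entries (1.69%) higher under DRB and 778 (5.84%) higher under triptolide. In the entries at an FPKM of 1 in all 3 libraries of one group and in none of the other, 295 for DRB and 345 for triptolide, part of the difference is set by the filter. Their direction is fixed by how they passed it. Genes named below that are of this kind for DRB include Gpr173, Dusp6, Mgat1, Hes5, Cyr61, Ccnyl1, Dlx5, Penk and Sox9. Those for triptolide include Slc2a2, Ghrl, Erdr1, Hes6 and Cd68. At the edge of the filter, 753 entries reached an FPKM of 1 in exactly 3 libraries and 412 in exactly 2. Under the stricter filter of 1 FPKM in all 6 libraries, 451 entries were higher under DRB by at least 1 and 223 under triptolide.

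**Figure D1:**
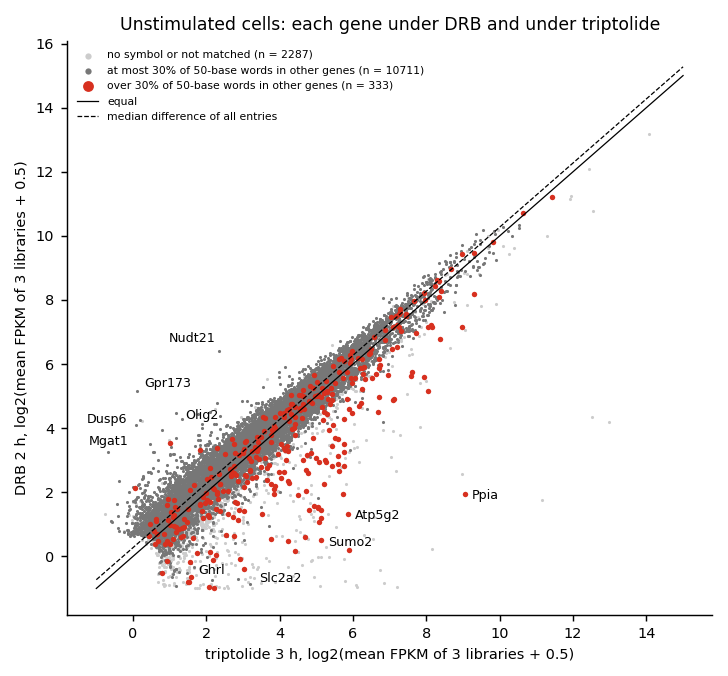
Mean expression of each tested entry under triptolide (x axis) and under DRB (y axis), both as log2 of the mean FPKM of 3 libraries plus 0.5. Each point is 1 entry, the solid line marks equal levels, the dashed line the median difference of 0.27, and red points are genes with over 30% of their 50-base words in other genes. Most points follow the lines, and the points far below them are mainly red or, in light grey, entries without a symbol or a match.

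Among genes with a mean of at least 5 FPKM in a group, the 4 largest differences towards DRB were in Gpr173, Dusp6, Nudt21 and Mgat1. Gpr173, an orphan G protein-coupled receptor of the brain, spans chrX:152343601-152368718 in mm10, the build of the table. It had an FPKM of 0.656, 0.584 and 0.526 in the triptolide libraries and of 33.6, 37.7 and 35.5 in the DRB libraries. The groups lay far apart, with a log2 difference of 5.05 (standard error, SE, 0.09; adjusted p = 6.78e-09, limma). Dusp6, a cytoplasmic phosphatase that switches off the kinase ERK, had 0.699, 0.574 and 0.680 FPKM under triptolide and 21.2, 17.3 and 17.7 under DRB, a difference of 4.06 (SE 0.11). Nudt21, which encodes the CFIm25 subunit of the complex that selects polyadenylation sites, had 4.73, 4.32 and 4.68 FPKM under triptolide and 80.2, 78.9 and 93.2 under DRB (4.05, SE 0.08). Mgat1, the Golgi enzyme that starts complex N-glycans, had 0.569, 0.594 and 0.501 FPKM under triptolide and 16.5, 16.8 and 16.8 under DRB (4.03, SE 0.09).

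The groups also stayed apart in these 4 genes over all 27 libraries of the study, which include the 6 that picked them. Over all 9 DRB libraries of the study Gpr173 lay between 33.6 and 42.0 FPKM, and over all 18 triptolide libraries between 0.496 and 0.773. For Nudt21 the ranges were 75.4 to 93.2 and 4.11 to 5.01, and for Mgat1 15.6 to 17.5 and 0.453 to 0.749. Dusp6 had 17.3 to 37.4 FPKM in the DRB libraries and 0.430 to 1.35 in the triptolide libraries. No DRB library came near a triptolide library in any of them. The 27 libraries include stimulated cells, nuclei and cytosol, so these ranges describe the library series and their inhibitors and are not replicates of a condition.

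The next 4 genes by size were Hes5, Cyr61, Olig2 and Klf6. Hes5, the Notch target that holds neural progenitors undifferentiated, had 0.0831, 0.148 and 0.149 FPKM under triptolide and 6.67, 8.29 and 12.1 under DRB, a log2 difference of 3.89 (SE 0.19). Olig2, the transcription factor of the oligodendrocyte lineage, had 1.96, 1.52 and 1.83 FPKM under triptolide and 24.0, 18 and 22.6 under DRB (3.27, SE 0.13). Klf6, a zinc finger factor induced by injury and growth signals, had 1.17, 1.09 and 1.48 FPKM under triptolide and 15.3, 14.3 and 14.7 under DRB (3.13, SE 0.10). In Hes5, Olig2 and Klf6 the lowest DRB library stood several-fold above the highest triptolide library. Cyr61, a secreted matrix protein and immediate early gene, was less even under DRB, with 26.8, 6.89 and 21.5 FPKM against 0.596, 0.539 and 0.926 under triptolide (3.80, SE 0.51). Its lowest DRB value was in replicate 2, the library that was also low in vascular markers, and whether the makeup of that library has a part in it was not tested. The other genes among the 14 largest differences towards DRB were Ccnyl1 (3.04), Spry2 (2.94), Map3k1 (2.72), Traf4 (2.70), Dusp7 (2.67) and Tfb2m (2.53), all with an SE of 0.10 to 0.14. Map3k1 is a kinase at the head of the JNK and ERK cascades and Traf4 an adaptor of receptor signalling.

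**Figure D2:**
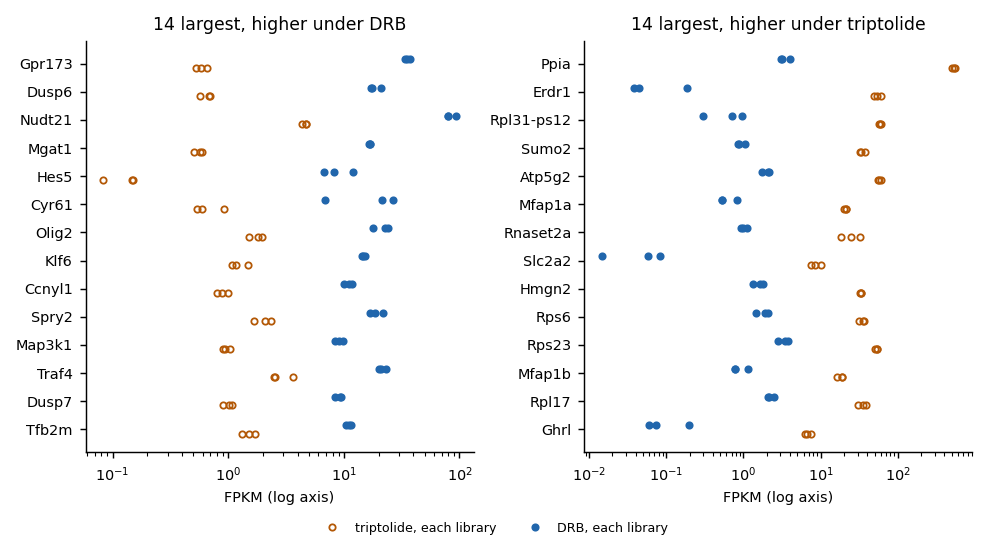
FPKM in each library (log x axis) of the 14 genes with the largest difference towards DRB, and of the 14 with the largest difference towards triptolide, taken from genes past the test whose mean in a group was 5 FPKM or more. Open points are triptolide libraries and filled points DRB libraries; in every gene shown the 3 libraries of one group lie above the 3 of the other, as the choice of the genes required.

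Immediate early genes, which are switched on without new protein synthesis, were mostly higher under DRB. Of the 32 listed genes 28 are in the table and 19 were tested, and of these 17 were called higher under DRB and 1 under triptolide, with a median difference of 1.31 beside 0.27 over all entries. Of all entries 50.1% were called higher under DRB and 15.9% under triptolide, or 27.3% and 30.6% after median-ratio scaling, and the counts of this and every other list stand beside those shares. After that scaling 14 immediate early genes were called higher under DRB and 1 under triptolide. Egr1, a zinc finger factor used as a mark of neuronal activity, had 4.26, 2.89 and 4.29 FPKM under triptolide and 25.8, 19.9 and 20.8 under DRB, a log2 difference of 2.4 (SE 0.16; adjusted p = 1.78e-05, limma). Fos, a subunit of the factor AP-1, had 3.34, 2.25 and 3.49 FPKM under triptolide and 7.33, 16.9 and 11.1 under DRB, so that the groups did not overlap although the DRB libraries ranged widely (1.74, SE 0.29). Npas4, a neuron-specific factor that responds to calcium entry, had 1.44, 1.07 and 1.60 FPKM under triptolide and 3.57, 9 and 5.03 under DRB (1.69, SE 0.29). Nr4a1, an orphan nuclear receptor, had 4.57, 2.94 and 4.14 FPKM under triptolide and 10.3, 22.0 and 10.2 under DRB (1.67, SE 0.32).

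In Fos, Npas4 and Nr4a1 the highest value came from DRB replicate 2, while in Egr1 that library had the lowest of the DRB values. Gadd45g, a stress sensor that slows the cell cycle, differed by 2.07 (SE 0.17) and Egr4 by 1.90 (SE 0.18). Gadd45g, Egr4 and Cyr61 lay under 1 FPKM in every triptolide library and above it in every DRB library. They passed the filter through the DRB group alone, so their direction was fixed by it and they add nothing to the list count. Btg2, an antiproliferative gene, was the member called higher under triptolide; it had 1.39, 1.44 and 2.06 FPKM there and 1.05, 1.08 and 1.21 under DRB (−0.39, SE 0.14; adjusted p = 0.0384, limma). Btg2 was chosen for naming after its value was seen, and its adjusted p was 0.053 to 0.12 without triptolide replicate 3 or without any single DRB library. Arc, the synaptic activity gene, did not pass the filter, with 1.5, 0.978 and 1.93 FPKM under triptolide and 0.844, 0.971 and 0.958 under DRB.

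Feedback inhibitors of ERK signalling, phosphatases and Sprouty proteins that ERK itself induces, had a median difference of 1.06. Of the 20 listed genes 16 were tested, 14 were higher under DRB and 0 under triptolide by limma, while 12 and 1 were called after median-ratio scaling. In this and in the other lists described with a count of 0, an unadjusted p under 0.05 also gave 0 in that direction, except for the stress response list, where it gave 1 towards triptolide. Dusp6 lay under 1 FPKM in every triptolide library and passed the filter through the DRB group alone, so its direction was fixed by it. Besides Dusp6, the receptor-level inhibitor Spry2 had 2.34, 1.67 and 2.10 FPKM under triptolide and 21.7, 16.7 and 18.4 under DRB. The ERK phosphatase Dusp7 had 1.07, 0.903 and 1.02 FPKM under triptolide and 9.31, 9.47 and 8.35 under DRB, with little spread in either group. Phlda1, a pleckstrin homology protein, had 1.44, 1.28 and 1.33 FPKM under triptolide and 4.49, 4.72 and 4.41 under DRB (1.45, SE 0.09).

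Of the 59 genes on a further list of short-lived mRNAs 44 passed the filter. Of these 40 were higher under DRB and 1 under triptolide (32 and 2 after median-ratio scaling), with a median of 1.02. Some members, among them Hes5, Id3, Mycn and Myc, lay under 1 FPKM in every triptolide library and above it in every DRB library. Such members passed the filter through the DRB group alone, so their direction, and with it part of the count and median, was fixed by it. Myc, the growth regulator, had 0.366, 0.341 and 0.448 FPKM under triptolide and 2.54, 2.33 and 3.31 under DRB (1.86, SE 0.14). Its relative Mycn differed by 2.14 (SE 0.19), and Id3, an inhibitor of basic helix-loop-helix factors, by 2.61 (SE 0.32). The member higher under triptolide was Zfp36l2, which encodes a protein that binds AU-rich elements and speeds mRNA decay; it had 2.05, 1.72 and 1.68 FPKM under triptolide and 1.46, 1.01 and 1.21 under DRB (−0.43, SE 0.13; adjusted p = 0.0188, limma), and 0.068 without triptolide replicate 1; it was singled out after its value was seen.

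Genes of the circadian clock, whose mRNAs turn over within each cycle, had a median of 0.78, with 16 of 20 tested genes higher under DRB and 1 under triptolide (12 and 2 after median-ratio scaling). Nr1d1, the repressor REV-ERBα, had 3.43, 2.60 and 3.58 FPKM under triptolide and 17.0, 14.4 and 15.4 under DRB (2.13, SE 0.12). The output factor Dbp differed by 1.5 (SE 0.16), the repressor Nfil3 by 1.32 (SE 0.17) and the negative limb gene Per1 by 1.31 (SE 0.18). Npas2, the partner of the clock's activator, was the member with the higher level under triptolide (−0.58, SE 0.15), named after its value was seen.

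Of 24 tested targets of p53, the factor activated by DNA damage and by stalled transcription, 15 were higher under DRB and 4 under triptolide (2 without triptolide replicate 2), with a median of 0.56. These shares lie near the 50.1% and 15.9% of all entries, and 11 and 6 were called after median-ratio scaling. Plk2, a kinase at synapses and a p53 target, had 3.11, 2.49 and 3.86 FPKM under triptolide and 17.4, 16.8 and 16.6 under DRB (2.27, SE 0.13). The stress inhibitor of mTOR Ddit4 and the death gene Bbc3 each differed by 1.24, and Sesn1 by 1.17 (SE 0.14). Perp, a desmosomal p53 target, went the other way (−0.47, SE 0.11; named after its value was seen).

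The AU-rich element TTATTTATT, in its DNA spelling, was searched on the transcribed strand of the 3′ UTRs in the GENCODE M21 annotation, which is on the same build. The sites below are shown because these genes differed and carry the element; the capitals mark the 9 bases searched. Fos at chr12:85477103-85477131, Plk2 at chr13:110400734-110400762, Sox9 at chr11:112786749-112786777 and Per1 at chr11:69109686-69109714 lie on the plus strand and Dusp1 at chr17:26506159-26506187 on the minus strand.
Fos: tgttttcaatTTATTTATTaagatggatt
Plk2: aataaactttTTATTTATTacagccccaa
Sox9: tgtgctaaaaTTATTTATTttgtaaggag
Per1: ggggctgcacTTATTTATTtgggagagac
Dusp1: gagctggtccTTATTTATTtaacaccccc

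The element was about as frequent in the genes higher under DRB by at least 1 as in all. Among genes that share no 50-base word with another gene, 31 of the 426 with a 3′ UTR and a difference of at least 1 towards DRB had the element (7.28%), beside 571 of all 7702 (7.41%). Towards triptolide 3 of 53 had it (5.66%). The median difference was 0.37 in the 7131 genes without the element and 0.37 in the 466 with 1 copy; in the 105 with 2 or more it was 0.32. The shorter pentamer ATTTA occurred at a median of 1.12 per kb of 3′ UTR in genes higher under DRB by at least 1 and 1.26 per kb in all. It was 1.25 per kb in those higher under triptolide by at least 1. Over all called genes, whatever the size, it was 1.16 per kb towards DRB and 1.53 per kb towards triptolide. A match is a run of letters and not a tested site.

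In gene structure the medians differed. Among the 435 genes that share no 50-base word with another gene and were higher under DRB by at least 1, the median gene length was 16.7 kb and the median exon number 6, beside 28.3 kb and 10 in all 7899 such genes. Of the 155 genes with a single exon 23 were higher under DRB by at least 1 (14.8%), and the share fell through 8.88% with 2 to 5 exons and 6.37% with 6 to 10 to 3.60% with 11 to 20 and 1.36% with 21 or more. By gene length it went from 10.8% below 5 kb to 3.61% above 150 kb. The 57 genes higher under triptolide by at least 1 had a median of 11 kb and 4 exons, and they were low genes, with a median level of 2.17 FPKM beside 9.94 in all 7899. All 790 genes called higher under triptolide, whatever the size, had a median of 35.6 kb and 9 exons, and were thus longer than the genes as a whole. These are descriptions over genes, which share libraries and are not replicates.

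The machinery that the inhibitors act on was itself mostly higher under DRB. Of 56 tested genes of polymerase II initiation and pause release 50 were higher under DRB and 3 under triptolide, beside 50.1% and 15.9% of all entries, with a median of 0.59. By median-ratio scaling 29 and 5 were called, so that much of this list lies within the shift between scalings. Cdk9, the target of DRB, had 21.8, 27.5 and 24.1 FPKM under triptolide and 35.8, 34.0 and 34.5 under DRB (0.50, SE 0.09; adjusted p = 0.00110, limma), and after median-ratio scaling its difference was 0.19 with an adjusted p of 0.0736 (limma). Hexim1, the inhibitor of P-TEFb, had 3.01, 2.72 and 3.07 FPKM under triptolide and 4.86, 4.70 and 4.91 under DRB (0.63, SE 0.09). Ercc3, which encodes the target of triptolide, had 9.24, 9.17 and 8.58 FPKM under triptolide and 14.3, 13.2 and 13.6 under DRB (0.58, SE 0.07).

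Polr2a, the largest subunit of polymerase II, differed in the opposite direction. It had 23.9, 25.3 and 25.8 FPKM under triptolide and 17.9, 15.4 and 17.0 under DRB (−0.56, SE 0.08; adjusted p = 0.000290, limma), with no overlap, and −0.87 after median-ratio scaling. The other members higher under triptolide were the small subunit Polr2l (−1.17, SE 0.11) and the elongation factor Tcea1 (−0.44, SE 0.07), which share 21% and 24% of their 50-base words with other genes. Tcea1 was named after its value was seen. The largest differences towards DRB in this list were those of Mllt3 (1.32), a subunit of the super elongation complex, Nelfa (1.06), a subunit of the pausing factor NELF, and Polr2e (1.00).

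Splicing factors had a median of 0.52, with 44 of 51 tested spliceosome and hnRNP genes higher under DRB and 2 under triptolide (26 and 6 after median-ratio scaling). Sf3a2 differed by 1.16 (SE 0.08), the splicing repressor Ptbp1 by 1.05 (SE 0.16) and the U1 protein Snrpa by 0.89 (SE 0.06), while Hnrnpf had −1.34 (SE 0.07) with 51.9% of its 50-base words in other genes. SR proteins and their CLK kinases had a median of 0.06, with 11 of 30 higher under DRB and 4 under triptolide, which turned to 6 and 13 after median-ratio scaling; under all 3 other scalings the sign of this median flipped, and without triptolide replicate 1 there were 10 and 8 calls. Clk1, whose mRNA is largely kept in the nucleus with introns retained, had 8, 9.96 and 13.4 FPKM under triptolide and 14.1, 15.6 and 15.2 under DRB (0.53, SE 0.16; adjusted p = 0.0217, limma). Its adjusted p was 0.302 after median-ratio scaling and 0.054 to 0.064 without triptolide replicate 2, DRB replicate 2 or DRB replicate 3. Clk4 had 9.67, 11.6 and 14.0 FPKM under triptolide and 11.5, 13.0 and 12.2 under DRB, with overlapping groups (0.06, SE 0.13; adjusted p = 0.672, limma). The largest called differences were those of the kinases Dyrk1a (1.09) and Clk3 (0.89), and Srsf7 was among the members higher under triptolide (−0.51, SE 0.10; named after its value was seen).

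Long noncoding RNAs listed as nuclear were not higher under DRB as a group. Of 14 tested, 2 were higher under DRB and 3 under triptolide, with a median of −0.18 (1 and 5 after median-ratio scaling); the count towards triptolide went from 1, without DRB replicate 1 or triptolide replicate 2 or 3, to 5 without DRB replicate 2. Meg3, an imprinted noncoding RNA of neurons, had 324, 554 and 437 FPKM under triptolide and 156, 333 and 204 under DRB. Its groups overlapped, since DRB replicate 2 exceeded triptolide replicate 1, and its difference was −0.96 (SE 0.33; adjusted p = 0.0454, limma), with an adjusted p of 0.091 to 0.13 without DRB replicate 1 or 3 or without triptolide replicate 2 or 3. Pantr1, which neighbours the factor Pou3f3, was higher under DRB, with 71.1, 77.2 and 65.0 FPKM against 49.0, 51.3 and 44.1 (0.56, SE 0.08). The other member higher under DRB was Peg13 (0.37, SE 0.07). In the fractions of unstimulated cells under triptolide neither was higher in nuclei. Pantr1 had a mean of 45.1 FPKM in nuclei and 45.2 in cytosol, and Peg13 28.8 and 42.4. Hosts of small nucleolar RNAs, a list of noncoding genes and of protein-coding ones such as Taf1d, had a median of 0.36. Of 18 tested, 11 were higher under DRB and 0 under triptolide (4 and 2 after median-ratio scaling, 9 and 2 without DRB replicate 3). The noncoding Snhg1 differed by 0.83 and Taf1d by 0.81.

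Genes that share much of their sequence with other genes were more often higher under triptolide. A single transcript of each gene, as a rule its longest protein-coding one, was cut into all words of 50 bases. The share of words also found in transcripts of another gene was counted, leaving out genes that overlap the gene itself on the chromosome. This share served as a measure of near-identical copies such as processed pseudogenes. Of the 11517 tested entries with a symbol, 11044 (95.9%) were matched to the annotation. In the 7899 genes that share no word, the median difference was 0.36, 435 genes (5.51%) were higher under DRB by at least 1 and 57 (0.722%) under triptolide. That balance depended on the scaling, since with median-ratio scaling of these genes alone 136 were higher under DRB by at least 1 and 171 under triptolide. A fit on these genes alone, added after the data were seen, called 5413 of them (68.5%), 58.3% towards DRB and 10.2% towards triptolide. In the 221 genes with over 30 to 60% of their words shared, the median was −0.09 and 39 genes (17.6%) were higher under triptolide by at least 1. In the 112 genes with more shared words still, the median was −0.82, and 51 (45.5%) were higher under triptolide by at least 1 and 0 under DRB.

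**Figure D3:**
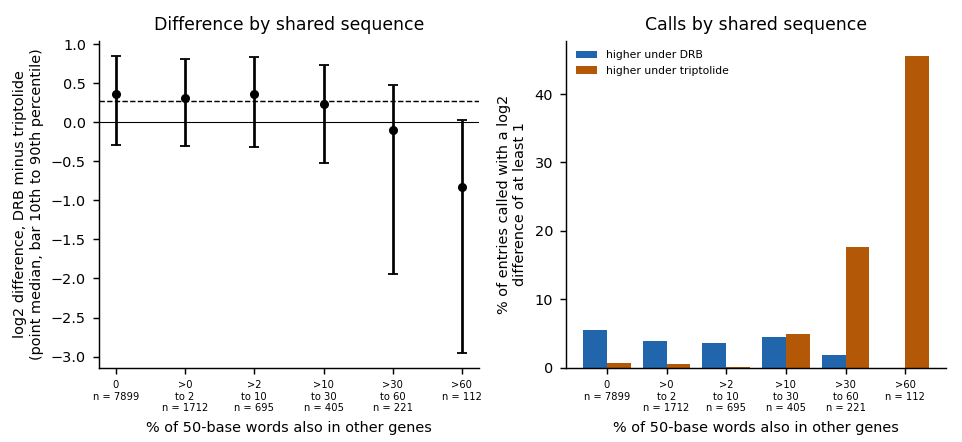
Left, the median log2 difference (DRB minus triptolide) of genes by the percentage of their 50-base words found in other genes, with bars from the 10th to the 90th percentile; the dashed line is the median of all entries, 0.27. Right, the percentage of genes in each class called with a difference of at least 1, towards DRB and towards triptolide; the latter goes from 0.722% without shared words to 45.5% in the highest class.

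Of the 14 largest differences towards triptolide, 11 were in genes with 30.2 to 87.4% of their words shared, and of the 14 towards DRB 1 was, Tfb2m with 39.6%. Ppia, which encodes the abundant folding enzyme cyclophilin A, lies at chr11:6415777-6419817 and shares 38.8% of its words. It had 546, 539 and 501 FPKM under triptolide and 3.99, 3.17 and 3.02 under DRB, a difference of −7.09 (SE 0.10; adjusted p = 1.37e-09, limma). Over all 9 DRB libraries it stayed between 2.76 and 3.99 FPKM and over all 18 triptolide libraries between 408 and 564. Sumo2, a small protein attached to other proteins, shares 30.2% and had 38, 31.9 and 33.1 FPKM under triptolide and 1.05, 0.837 and 0.864 under DRB (−4.62, SE 0.10). Atp5g2, a subunit of the ATP synthase ring with 87.4% of words shared, had −4.53, the chromatin protein Hmgn2 (67.1%) −4.00, and the neighbouring near-identical splicing genes Mfap1a (58.6%) and Mfap1b (62.5%) −4.26 and −3.74. Rpl31-ps12, itself a pseudogene (69.3%), had −5.72.

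The runs below show what is shared. That of Ppia at chr11:6419194-6419243, plus strand, lies in 18 other annotated genes, 16 of them pseudogenes, and that of Sumo2 at chr11:115534586-115534635, minus strand, lies in 7 other genes, all pseudogenes. Both are given in lower case throughout because every base is shared.
Ppia: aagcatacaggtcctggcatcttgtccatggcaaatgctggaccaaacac
Sumo2: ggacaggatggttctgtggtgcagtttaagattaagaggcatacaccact

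How the authors' counting treated a read that fits several places, and whether it treated both sets of libraries alike, is not given in the sources used here. The levels of genes with such copies are therefore uncertain, and what part the copies have in these differences was not tested. Entries with over 50% of their words shared took 3.17, 3.28 and 3.01% of the summed FPKM in the triptolide libraries and 2.23, 2.21 and 2.42% in the DRB libraries, without overlap (exact permutation test, two-sided p = 0.1, the smallest that 3 against 3 allows). Over the whole study the share was 2.86 to 3.28% in 18 triptolide libraries and 2.16 to 2.64% in 9 DRB libraries. Gapdh, the glycolytic enzyme with 82.5% of words shared, was low in both groups, at 1.93 to 2.33 FPKM under triptolide and 1.33 to 1.52 under DRB; it was named after its values were seen.

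Cytosolic ribosomal proteins, the family with the most processed pseudogenes, had a median of −0.71, with 13 of 74 tested genes higher under DRB and 42 under triptolide (4 and 49 after median-ratio scaling), 29 of these by at least 1. The 56 members with over 30% of words shared had a median of −1.45, and 39 of them were higher under triptolide. In the 6 members with at most 10% shared the median was 0.45, with 4 higher under DRB and 0 under triptolide. Rps6, the ribosomal protein phosphorylated by S6 kinase (84.6% shared), had 35.9, 35.9 and 31.4 FPKM under triptolide and 1.46, 1.88 and 2.10 under DRB. Rps23 differed by −3.78, Rpl17 by −3.68 and Rps13 by −3.52. Rpl8, with 6.49% shared, went the other way, with 220, 212 and 180 FPKM under triptolide and 344, 351 and 365 under DRB (0.80, SE 0.08); it was named after its values were seen.

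Other families of abundant proteins were divided by the same measure. Nuclear-encoded genes of oxidative phosphorylation had a median of 0.23, with 44 of 76 higher under DRB and 9 under triptolide, and the 58 with at most 10% of words shared had 42 and 1. Ndufs7, a core subunit of complex I that shares no word, differed by 0.92 (SE 0.08), and Cycs, cytochrome c (28.5% shared), by −3.23 (SE 0.09). Glycolytic and hypoxia genes had a median of 0.26, with 16 of 29 higher under DRB and 6 under triptolide; Pgam1 (41.5% shared) had −2.22 and Pgk1 (68.0%) −2.15. Heat shock genes and chaperones had a median of 0.28 with 12 of 24 higher under DRB and 6 under triptolide, close to the 0.27 and the 50.1% of all entries. The constitutive chaperone Hspa8 (74.8% shared) had 331, 326 and 338 FPKM under triptolide and 112, 109 and 109 under DRB, while its inducible partner Dnajb1 (0.441%) had 2.87, 2.66 and 2.38 and 8.73, 7.99 and 8.17 (1.49, SE 0.09). After median-ratio scaling the counts for these 3 lists were 18 and 30, 4 and 11, and 6 and 10, and all 3 medians turned negative, to −0.09, −0.06 and −0.04.

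**Figure D4:**
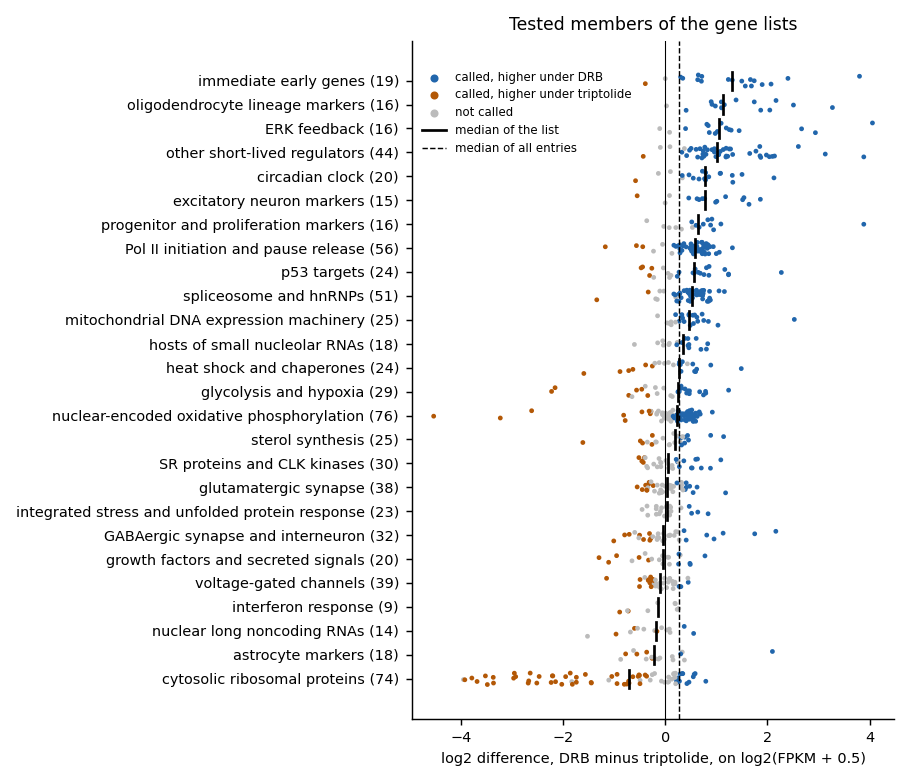
Log2 difference (DRB minus triptolide, x axis) of every tested member of the gene lists (rows, number tested in brackets). Blue points were called higher under DRB and brown points higher under triptolide, grey points were not called, short black bars are list medians and the dashed line is the median of all entries, 0.27. Immediate early genes (1.31), oligodendrocyte lineage markers (1.13) and ERK feedback genes (1.06) have the highest medians, and ribosomal proteins (−0.71) lie to the left.

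Mitochondrially encoded RNAs, the products of the separate mitochondrial polymerase, took a larger share of the summed FPKM under triptolide. They made up 9.91, 9.20 and 12.5% of the summed FPKM in the triptolide libraries and 5.06, 5.5 and 5.74% in the DRB libraries. The groups did not overlap (exact permutation test, two-sided p = 0.1, the smallest possible), and over the study the share was 8.72 to 12.5% in the 18 triptolide libraries and 4.73 to 5.96% in the 9 DRB libraries. Of 13 tested mitochondrial entries 9 were higher under triptolide and 0 under DRB by limma, or 1 under DRB when DRB replicate 3 was left out. mt-Rnr1, the small ribosomal RNA, shares no word with another gene; it had 2618, 2291 and 2586 FPKM under triptolide and 951, 1018 and 1108 under DRB (−1.28, SE 0.08). The entry for mt-Rnr2 and mt-Nd1 (at most 1.04% of words shared) differed by −0.68 and mt-Nd2 (8.19%) by −0.75. Entries with more shared words were mt-Co1 (51.1%), which differed by −0.88, and mt-Nd4l with mt-Nd4 (98.8% and 62.2%), by −1.76. They weigh much in the sum, mt-Co1 with means of 17201 FPKM under triptolide and 9261 under DRB. What part shared sequence has in the share was not tested. The entry for mt-Nd5, mt-Nd6 and mt-Cytb had −0.33 and was not called (adjusted p = 0.0549, limma).

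The extreme case was mt-Nd3, a subunit of complex I at chrM:9459-9804, with 2282, 1959 and 2602 FPKM under triptolide and 2.50, 2.07 and 4.18 under DRB (−9.42). Of its words 98.0% also lie in an annotated copy on chromosome 1. The entries over that nuclear copy of mitochondrial DNA were all higher under triptolide, by unlike amounts. Differences of −5.07, −5.35 and −1.04 were found at chr1:24615710-24615972, chr1:24611527-24612770 and chr1:24613965-24614713. The last had 1.66, 1.05 and 2.06 FPKM under triptolide and 0.523, 0.407 and 0.569 under DRB. Larger differences were found in the entries that follow. At chr1:24614879-24615568, a copy of mt-Co2, the levels were 5573, 5756 and 6363 FPKM under triptolide and 20.9, 17.8 and 20.9 under DRB (−8.18). At chr1:24613188-24614814, a copy of mt-Atp6 and mt-Co3, they were 7772, 7113 and 9277 and 14.9, 14.7 and 23.3 (−8.82). Reads of the mitochondrial genes and of the chromosome 1 copy cannot be told apart where every base is the same, as in the runs below at chrM:9462-9511 and chrM:7070-7119, which the copy holds in full. What part the copy has in the difference of mt-Nd3 was not tested.
mt-Nd3: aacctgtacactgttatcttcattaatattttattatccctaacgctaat
mt-Co2: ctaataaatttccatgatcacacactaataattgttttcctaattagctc

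**Figure D5:**
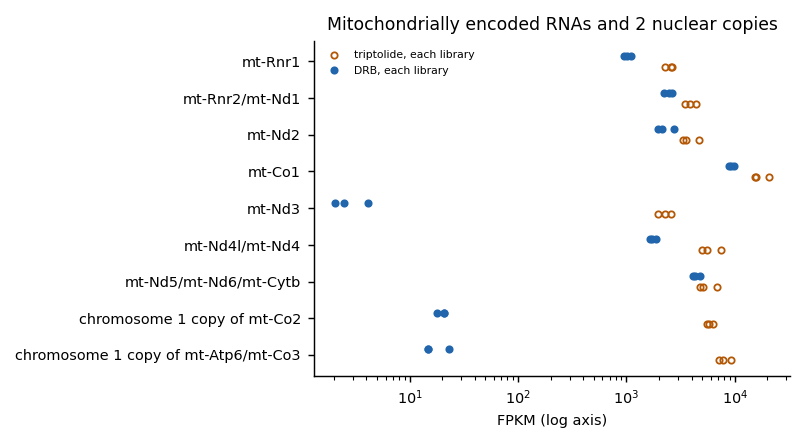
FPKM (log x axis) in each library of the mitochondrial entries named in the text and of the chromosome 1 copies of mt-Co2 and of mt-Atp6 with mt-Co3 (rows). Open points are for triptolide and filled points for DRB. The copies and mt-Nd3 show the widest gaps between the groups, and mt-Rnr1 a narrower one, its difference being −1.28.

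Nuclear genes that express mitochondrial DNA were higher under DRB in 19 of 25 tested cases and higher under triptolide in 0 (10 and 3 after median-ratio scaling), with a median of 0.47. Tfb2m, the factor that melts mitochondrial promoters, had 1.51, 1.69 and 1.31 FPKM under triptolide and 10.4, 11.1 and 11.6 under DRB (2.53, SE 0.10). Polrmt, the mitochondrial polymerase, had 4.81, 4.91 and 4.22 FPKM under triptolide and 7.88, 7.32 and 7.30 under DRB (0.64, SE 0.09), and the RNA processing protein Ptcd1 differed by 1.03 (SE 0.09).

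Of the 7899 genes without shared words 790 (10%) were called higher under triptolide, 57 of them by at least 1. Slc2a2, the glucose transporter of liver and pancreas, had 8.43, 9.98 and 7.56 FPKM under triptolide and 0.0834, 0.0147 and 0.0584 under DRB (−4.05, SE 0.13). Ghrl, the gene of the stomach hormone ghrelin, had 6.27, 7.46 and 6.67 FPKM under triptolide and 0.0598, 0.0736 and 0.196 under DRB (−3.59, SE 0.13). Both are genes of other organs, and both were nuclear in the triptolide set: the nuclear libraries of unstimulated cells held a mean of 21.1 FPKM of Slc2a2 and 18.5 of Ghrl, and the cytosolic libraries 1.39 and 1.09 (n = 3 each). Erdr1, on the Y chromosome entry chrY:90784738-90816465 and not matched to the annotation, had 48.6, 53 and 60.3 FPKM under triptolide and 0.0380, 0.188 and 0.0446 under DRB, with 93.3 in the nuclei and 17.3 in the cytosol. Over the 57 genes without shared words that were higher under triptolide by at least 1, the log2 of nuclear over cytosolic FPKM had a median of 0.54 and a 90th percentile of 2.88, beside 0.00 and 1.02 in all 7899. Their 10th percentile was −0.93, beside −0.48 in all, so that they spread further towards both compartments, and all 790 called genes had a median of −0.14.

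The other leading genes without shared words were of several functions and were added to the named genes after values were seen. Hes6, a repressor that promotes neuronal differentiation, had 6.27, 6.79 and 6.07 FPKM under triptolide and 0.757, 0.994 and 0.756 under DRB (−2.37, SE 0.11), opposite in sign to its relative Hes5. The neuropeptide Grp differed by −2.01 (SE 0.15). Vgf, a neuropeptide precursor induced by neurotrophins, had 85.0, 63.4 and 77.1 FPKM under triptolide and 33.4, 23.6 and 34.6 under DRB (−1.29, SE 0.16). Differences of −1.11 to −1.24 were found for Crhbp, Dkk3, Tmem47, Islr, Csmd3, the calcium channel subunit Cacna2d3, Mgst1, Slc7a3 and the synaptic pentraxin Nptx2. Of these, Islr was not called without triptolide replicate 1 or 2 or DRB replicate 3 (adjusted p 0.066 to 0.098, limma), nor Crhbp without DRB replicate 1 (0.058). Bdnf, the neurotrophin, had 3.82, 3.36 and 4.73 FPKM under triptolide and 1.74, 1.79 and 1.85 under DRB, again without overlap (−0.95, SE 0.13).

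Genes of synapses and excitability had medians under that of all entries. The glutamatergic synapse list had a median of 0.03 with 8 of 38 tested genes higher under DRB and 8 under triptolide, and the GABAergic synapse and interneuron list a median of −0.04 with 7 of 32 higher under DRB and 8 under triptolide. Voltage-gated channels had a median of −0.11, with 3 of 39 higher under DRB and 11 under triptolide, among them the calcium channel Cacna1d (−0.50, SE 0.10). Growth factors and secreted signals had a median of −0.05 with 5 of 20 higher under DRB and 5 under triptolide. By median-ratio scaling these 4 lists had 2 and 21, 5 and 15, 0 and 28, and 1 and 11 calls towards DRB and triptolide. The channel counts went from 1 and 17 without DRB replicate 2 to 6 and 7 without DRB replicate 3, with 1 and 9 without DRB replicate 1, and 1 and 7 without triptolide replicate 3. Glutamatergic genes higher under triptolide numbered 5 without triptolide replicate 3, and growth factors higher under DRB 3 without DRB replicate 1 or any 1 triptolide library. Camk2a, the abundant synaptic kinase, had 392, 353 and 336 FPKM under triptolide and 427, 363 and 359 under DRB, with overlapping groups; its difference of 0.08 (adjusted p = 0.418, limma; named after its values were seen) turned to −0.23 by median-ratio scaling.

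Markers of excitatory neurons, interneurons and astrocytes differed in direction within their lists. Excitatory neuron markers had a median of 0.77, with 12 of 15 higher under DRB and 1 under triptolide (10 and 2 after median-ratio scaling). Among their transcription factors, those higher under DRB included Neurod2 (1.86, SE 0.11), with 2.42, 3.31 and 3.04 FPKM under triptolide and 12, 11.7 and 11.9 under DRB, Bcl11b (1.64), Emx1 (1.54) and Tbr1 (1.52). Fezf2, the factor of deep-layer neurons, had means of 1.76 FPKM under triptolide and 1.74 under DRB; it was named after its values were seen. The vesicular glutamate transporter Slc17a7 was the member higher under triptolide, at 253, 230 and 237 FPKM against 164, 203 and 133 (−0.55, SE 0.14). In the GABAergic list, whose 7 and 8 calls were nearly balanced, the factors Dlx5 (2.17) and Lhx6 (1.13) and the neuropeptide precursor Penk (1.75) were higher under DRB, and the neuropeptide Cort was higher under triptolide (−1.01, SE 0.30; adjusted p = 0.0219, limma). The adjusted p of Cort was 0.055 to 0.078 without DRB replicate 1 or triptolide replicate 1 or 3. Astrocyte markers had a median of −0.22, with 2 of 18 higher under DRB and 5 under triptolide, and 1 and 10 after median-ratio scaling. Without DRB replicate 3 or triptolide replicate 1 or 2 these counts were 3 and 2, and without DRB replicate 1 or triptolide replicate 3 they were 1 and 4, and 1 and 5. The factor Sox9 had 0.357, 0.360 and 0.543 FPKM under triptolide and 3.74, 2.55 and 4.18 under DRB (2.10, SE 0.17), whereas the gap junction gene Gja1 had 22.2, 23.3 and 21.4 and 13.7, 11.7 and 13.2 (−0.77, SE 0.08).

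Oligodendrocyte lineage markers had a median of 1.13, with 14 of 16 tested genes higher under DRB and 0 under triptolide, 12 and 0 after median-ratio scaling and 9 to 13 and 0 without any single library, 9 being the count without triptolide replicate 3. Their summed FPKM was 121 to 161 under triptolide and 254.8 to 360.4 under DRB. Some members of this list lay under 1 FPKM in every triptolide library and above it in every DRB library. Such members passed the filter through the DRB group alone, so their direction, and with it part of the count and median, was fixed by it. Besides Olig2, the myelin protein gene Mbp had 1.97, 6.84 and 4.40 FPKM under triptolide and 32.1, 35.4 and 13.5 under DRB (2.51, SE 0.56), and the myelin gene Mag differed by 2.17 (SE 0.51) with 0.5, 2.35 and 1.71 FPKM under triptolide and 10.6, 10.1 and 4.36 under DRB. In Mbp and Mag the libraries of each group ranged widely, and without DRB replicate 2 the adjusted p of each was 0.054 (limma). These libraries of whole cultures cannot tell fewer cells of a type from less RNA per cell.

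Progenitor and proliferation markers had a median of 0.63 with 10 of 16 higher under DRB and 0 under triptolide (6 and 1 after median-ratio scaling); Cdk1, the mitotic kinase, had 0.883, 0.931 and 1.33 FPKM under triptolide and 3.17, 1.56 and 2.95 under DRB. Hes5 is also on this list, and its direction was fixed by the filter. The summed level of this list was lowest of all 6 libraries in DRB replicate 2, and without that library 13 were higher under DRB, while 6 were without DRB replicate 1, DRB replicate 3 or triptolide replicate 1. Of 17 microglial markers 4 were tested, with Aif1 higher under DRB (1.03, SE 0.23) and Tyrobp (−1.58, SE 0.53; adjusted p 0.089 to 0.13 without triptolide replicate 1 or 3 or DRB replicate 2 or 3) and Cd68 (−1.10) higher under triptolide, and the sum was 13.9 to 30.3 FPKM under triptolide and 12.8 to 15.5 under DRB. Cd68 lay above 1 FPKM in every triptolide library and under it in every DRB library, so its direction was fixed by the filter. Of 20 vascular and mesenchymal markers 4 were tested, and Dcn, a collagen-binding proteoglycan, was higher under triptolide (−1.33, SE 0.40; adjusted p = 0.0239, limma) while 0 were higher under DRB. Without DRB replicate 2, 3 of the 4 were higher under DRB, and without DRB replicate 1 or 3 or triptolide replicate 2 Dcn was not called (adjusted p = 0.052 to 0.083).

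The stress response, interferon and sterol lists had medians under that of all entries. Genes of the integrated stress and unfolded protein response had a median of 0.03 with 4 of 23 higher under DRB and 0 under triptolide, and 1 and 8 after median-ratio scaling, where the median was −0.28. Those counts were 2 and 1 without DRB replicate 2, 2 and 0 without DRB replicate 3 or triptolide replicate 2, and 1 and 2 without triptolide replicate 3. Its central factor Atf4 had 69.2, 64.3 and 45.5 FPKM under triptolide and 105, 106 and 105 under DRB (0.84, SE 0.14). Interferon response genes had a median of −0.15 with 0 of 9 higher under DRB and 2 under triptolide, among them B2m (−0.89, SE 0.10); there were 1 and 2 without DRB replicate 2 and 0 and 1 without DRB replicate 3. Sterol synthesis genes had a median of 0.19 with 8 of 25 higher under DRB and 5 under triptolide, which turned to 2 and 11 with a median of −0.13 after median-ratio scaling, with Idi1 at −1.61 (21.3% of words shared) and Mvd at 1.14. The sterol counts were 8 and 2 without DRB replicate 3, and 5 and 3, 10 and 3, and 5 and 5 without triptolide replicate 1, 2 and 3. Of 5 sex-linked genes tested 0 were called in either direction. Zinc finger genes with a Zfp symbol, many of them repressors with short-lived mRNAs, had a median of 0.45 with 128 of 211 higher under DRB and 17 under triptolide (11 without triptolide replicate 3), or 81 and 38 after median-ratio scaling, beside 50.1% and 15.9% of all entries, and Zfp608 led with 2.09 (SE 0.10).

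Entries without a gene symbol, 1814 of those tested, had a median of −0.25; 267 were higher under DRB and 778 under triptolide, 276 of the latter by at least 1. That is 15.2% of them, beside 3.56% of all entries. Overlap with an annotated gene was taken as the smaller of the covered share of the entry and the covered share of the gene. At 50% or more by this measure, 127 of these entries lay over a pseudogene and 253 over another gene. The other 1434 were under 50%, a class that includes any short entry inside a long gene. What the entries without a symbol encode was not assigned.

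The same inhibitor contrast was available in cells given bicuculline, a blocker of GABA-A receptors that raises neuronal firing, at 20 µM for 1 h, again 3 libraries under each inhibitor and none of them in the fit of unstimulated cells. There 7562 of 13276 entries (57%) were called, 43.5% towards DRB and 13.5% towards triptolide, and 3.6% and 3.16% were so with a difference of at least 1. Of the 584 entries higher under DRB by at least 1 in unstimulated cells 581 were tested, all with the same sign, and 572 were called (98.5%); of the 475 higher under triptolide 433 were tested, all with the same sign, and 429 were called (99.1%). The filter was applied in the same way to these 6 libraries, so an entry that passed it through 1 group alone had its sign fixed there too. Part of this agreement was therefore set in advance. Among all tested entries called in unstimulated cells, whatever the size, 99.6% of those higher under DRB and 99.4% of those higher under triptolide kept their sign. The bicuculline libraries carry the same S and N names as the unstimulated ones and belong to the same 2 series, so the inhibitor, its hours and the series cannot be told apart here either. Gpr173 differed by 5.04, Nudt21 by 4.09, Ppia by −7.10 and Slc2a2 by −3.52 in these libraries.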

How the data were processed

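Polyadenylated RNA was sequenced from libraries prepared with the TruSeq stranded mRNA kit, starting from total RNA, per the labels' protocols. FPKM values were deposited by the authors for each gene model of the transcript database FASTDB. Per the submitters' processing notes, STAR 2.4.0, SAMtools, Picard and FastQC were used, with mm10 as the build. No source used here gives the counting program, whether strand was used, or the treatment of reads that fit several places. Depth was computed from the steps of low values; of 649 entries with such steps, 584 (90%) had the same step in both groups within 0.5%.

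FPKM were used as deposited. Entries with at least 1 FPKM in 3 of the 6 libraries were tested as log2(FPKM + 0.5) with limma 3.58.1 (moderation with trend and robust; R 4.3.3) with calls at an adjusted p (Benjamini-Hochberg, over all entries tested) under 0.05. On simulated data for the unstimulated comparison (13331 genes), 100 genes were changed by a log2 of 1 and 100 by 0.5. Of these 80% and 37% were recovered, and 2.5% of calls were false. In the real data 66% of entries were called, and the simulation held no shift in scale between libraries, so these rates do not carry over. Gene structure, 3′ UTRs and 50-base words came from GENCODE M21. Python 3.11.15 with scipy 1.17.1, numpy 2.4.6, pandas 2.3.3 and matplotlib 3.10.9 made the summaries and plots. Other scalings, pseudocounts of 0.1 and 1, other filters, a replicate block and leaving out each library were tried.

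The comparison and the 31 gene lists were chosen with earlier results of these data known. Named genes are the 14 largest called differences each way among genes with a mean of at least 5 FPKM in a group, groups that do not overlap and a settled symbol; up to 4 called members of each list; and 15 genes named whatever their values. Genes added after values were seen are marked as such in the text, and Dusp1, shown for its sequence, is also of that kind. The values of 1 gene of the lists are not reported here.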

Additional observations from a re-analysis of the deposited data

Results flagged for a closer look

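For 7 of the named genes the difference between the inhibitors was larger in bicuculline-treated than in unstimulated cells by a test of the difference itself, an interaction term fitted with limma over 12 libraries; it was called for 19 of 13814 entries in all. The interaction, on the log2 scale, was 4.12 for Npas4 (adjusted p = 0.00086), whose mean level under DRB was 5.87 FPKM in unstimulated and 162 FPKM in bicuculline-treated cells, while under triptolide it was 1.37 and 2.4 FPKM. For Fos it was 2.89 (adjusted p = 0.0055), with 11.8 and 144 FPKM under DRB and 3.03 and 5.42 under triptolide. For Gadd45g it was 2.52 (adjusted p = 0.00086), for Egr4 1.85 (0.011), for Dusp1 1.81 (0.0028) and for Nfil3 1.29 (0.048). For Btg2 it was 1.24 (adjusted p = 0.041), with a difference of −0.39 in unstimulated cells and 0.85 in bicuculline-treated ones, so that the direction turned between the states. All 7 genes are known as activity-induced. Libraries of both states carry the same sample names in the labels, and whether these mark shared cultures is not stated there.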

How the results depend on the processing

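The counts of 8793 calls, of 1059 with a log2 difference of at least 1 and of 7562 in bicuculline-treated cells stayed within 1.5 times under every alternative run except those in the next sentences. A filter of 1 FPKM in all 6 libraries left 674 entries with a difference of at least 1, by its fewer entries. In entries without shared 50-base words alone, an alternative chosen after seeing the data, 5413 were called and 492 with at least 1 (4783 called in bicuculline-treated cells), and with median-ratio scaling in addition 4303, 307 and 3357. Leaving out 1 library gave 7999 to 8775 calls, 1036 to 1145 with at least 1, and 6087 to 7940 in bicuculline-treated cells; the mitochondrial share differed by −5.77 to −4.12 points. Camk2a turned to −0.23 by median-ratio scaling and −0.015 by quantile normalization. Clk4 turned to −0.24 by median-ratio scaling, −0.21 by quantile normalization, −0.013 without mitochondrial RNAs and −0.31 without shared words and median-ratio scaled, and ranged from −0.063 without triptolide replicate 1 to 0.19 without triptolide replicate 3. Peg13, an imprinted noncoding RNA, turned to −0.0098 in that last combined setting. Fezf2 turned to 0.0026 with a pseudocount of 0.1 and ranged from −0.12 to 0.067 without 1 library. Of 161 named genes 150 kept direction and side of the threshold under median-ratio scaling. The cause of these changes was not tested.

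With the replicate number as a replicate block 8765 entries were called, 1062 with at least 1, and 6986 in bicuculline-treated cells. Same-numbered libraries correlated at −0.041, 0.11 and −0.062 in their deviations from the group means, so the numbers are not taken to pair them, and not every library correlated best with its own number. At this depth 10 fragments on 2 kb make at most 0.0655 FPKM, so levels under DRB of genes such as Slc2a2 rest on few fragments.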

Other observations

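Genes at both ends of the ratio of nuclear to cytosolic FPKM in the triptolide set had lower differences than those between. Among genes without shared 50-base words the median difference was −0.02 in the 812 with a log2 ratio over 1, where 2.71% were higher under triptolide by at least 1 and 1.35% under DRB, and 0.44 in the 3921 with a ratio between −1 and 0, where 0.434% and 6.58% were. In the 29 most cytosolic genes, with a ratio under −1, the median was −0.26, and 13.8% were higher under triptolide by at least 1 and 0% under DRB. The nuclear and cytosolic libraries were made under triptolide, so that this ratio and the contrast share the triptolide library series.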
